A study of Mus musculus with 11 samples.

Results

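The Schlafen genes of the mouse lie side by side on chromosome 11, and 6 of them, Slfn1, Slfn2, Slfn3, Slfn5, Slfn8 and Slfn9, were followed in activated CD8+ T cells treated with a lipase, with a phospholipid or with vehicle. They were taken by name from the 25562 gene symbols of the deposited expression table, and all 6 passed the filter on low values in every comparison. Another 4 symbols that start with Slfn (Slfn4, Slfn10-ps, Slfn14 and Slfnl1) are given only for context. Schlafen proteins share an N-terminal core related to AAA ATPases and were first described in developing and activated mouse T cells. The short forms, Slfn1 and Slfn2, hold little besides that core, the intermediate form Slfn3 carries an added linker, and the long forms, Slfn5, Slfn8 and Slfn9, end in a region that resembles RNA helicases. Type I interferon induces several of them, and family members cut or shield transfer RNA: human SLFN11 and rat Slfn13 cleave it, whereas mouse Slfn2 guards it against the nuclease angiogenin.

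The cells were cytotoxic lymphocytes (CD8+ T cells) of the spleen of C57BL/6 mice, a common inbred strain. A pretreatment of 22 h was followed by 24 h of activation through CD3 (antibody at 1 µg/mL) and CD28 (antibody at 0.5 µg/mL). The 4 AOAH libraries received the ethanol control and 10 µg/mL of His-tagged recombinant human acyloxyacyl hydrolase, a lipase known for deacylating bacterial lipopolysaccharide. Their treatment label gives the ethanol control before the enzyme. The 3 PC libraries were pretreated with 60 µM of a phosphatidylcholine that carries palmitic and arachidonic acid, followed by the protein buffer of 10% glycerol. The 4 vehicle libraries had the ethanol control and that same buffer. No glycerol share is labelled for AOAH, so its effect and that of a different buffer cannot be told apart, and the labels disagree on whether the enzyme was present before or during activation. Libraries are numbered by batch, PC has none from batch 4, and no label ties them to separate animals or cultures, so p-values measure only the spread between libraries.

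Every library carried the CD8 T cell markers: Cd3e, Cd3d, Cd8a, Cd8b1 and Trac summed to between 1182 and 1220 TPM with AOAH, 1530 and 1588 TPM with PC, and 1309 and 1344 TPM with vehicle. TPM scales reads by transcript length to a share of the library, so levels can be compared between genes. Among 10 myeloid markers 7 were in the table, of which Csf1r and Adgre1 stayed at or below 0.10 TPM in all 11 libraries and Cd68 reached 6.19 TPM. Lyz2 averaged 0.40 TPM with AOAH, 1.83 TPM with PC and 1.07 TPM with vehicle. Tyrobp averaged 0.545 TPM with AOAH, 1.01 TPM with PC and 0.775 TPM with vehicle. The 7 B cell markers summed to 131 to 140.2 TPM with AOAH, 167 to 173 TPM with PC and 151 to 156 TPM with vehicle, most of it Ighm. Cd79b stood at 5.42 to 9.20 TPM over the 11 libraries, and the other 5 B cell markers stayed at or below 0.67 TPM. The 4 NK cell markers summed to 81.9 to 88.5 TPM with AOAH, 79.6 to 85.3 TPM with PC and 99.0 to 103 TPM with vehicle, mostly Eomes, which CD8 T cells express too, with Ncr1 at or below 0.24 TPM. Of the lesser lists, 4 dendritic cell markers summed to at most 1.05 TPM, 3 erythroid markers to at most 1.14 TPM and the CD4 T cell pair Cd4 and Foxp3 to at most 1.39 TPM. In such bulk samples fewer cells of a type and less RNA per cell cannot be told apart. Between 11423 and 11739 genes per library reached 1 TPM, and mitochondrial transcripts held 3.39% to 3.62%; depth is unknown, because TPM keeps none.

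The promoters of 4 members are shown for the interferon motif that 3 of them carry and Slfn1 does not. All 6 members matched the RefSeq promoter table, whose build is GRCm38.p6, older than the mm39 build of the deposited values, and no coordinate was carried between the builds. Each window runs 5′ to 3′ on the strand of its gene, from 250 bases before the start to 50 bases after it. Capitals mark the core of the interferon-stimulated response element, written as GAAA, any 2 bases and GAAA, searched on both strands, so that it reads TTTC, any 2 bases and TTTC where it lies on the other strand. The Slfn8 window is the first of 2 in that table and lies at chr11:83020761-83021060 on the minus strand. The Slfn9 window lies at chr11:82991781-82992080 on the minus strand, the Slfn5 window at chr11:82951852-82952151 on the plus strand and the Slfn1 window at chr11:83116570-83116869 on the plus strand.
Slfn8: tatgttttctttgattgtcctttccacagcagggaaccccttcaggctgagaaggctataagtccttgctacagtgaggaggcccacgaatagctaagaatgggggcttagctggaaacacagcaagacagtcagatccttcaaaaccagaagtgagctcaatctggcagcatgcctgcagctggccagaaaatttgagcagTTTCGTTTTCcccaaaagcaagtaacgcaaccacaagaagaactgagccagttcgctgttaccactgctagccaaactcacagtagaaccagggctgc
Slfn9: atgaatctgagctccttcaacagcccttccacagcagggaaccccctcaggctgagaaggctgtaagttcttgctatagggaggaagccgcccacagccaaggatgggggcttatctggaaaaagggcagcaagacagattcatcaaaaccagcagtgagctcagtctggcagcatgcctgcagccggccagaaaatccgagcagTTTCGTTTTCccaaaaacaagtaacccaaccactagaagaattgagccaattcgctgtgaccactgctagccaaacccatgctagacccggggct
Slfn5: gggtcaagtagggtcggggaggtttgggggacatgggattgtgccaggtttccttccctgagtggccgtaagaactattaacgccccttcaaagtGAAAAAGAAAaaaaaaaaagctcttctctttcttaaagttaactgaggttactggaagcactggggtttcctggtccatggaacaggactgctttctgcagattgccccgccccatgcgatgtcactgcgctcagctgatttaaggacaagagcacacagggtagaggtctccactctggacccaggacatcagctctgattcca
Slfn1: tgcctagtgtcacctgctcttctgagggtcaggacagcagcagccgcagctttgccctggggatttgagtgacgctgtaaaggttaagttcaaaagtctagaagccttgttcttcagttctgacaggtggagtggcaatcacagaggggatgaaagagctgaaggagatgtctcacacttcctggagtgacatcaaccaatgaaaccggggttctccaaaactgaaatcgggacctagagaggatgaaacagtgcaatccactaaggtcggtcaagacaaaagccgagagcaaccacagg
The motif began at position -48 from the gene start in Slfn8 and at -45 in Slfn9, both on the other strand, and at -155 in Slfn5 on the strand of the gene, and it was not found in the windows of Slfn1, Slfn2 or Slfn3. Of all 32851 promoter windows of this length, 3.44% held it. The Slfn8 and Slfn9 windows were 84.9% identical over 292 aligned bases. The STAT motif TTCNNNGAA, present in 8.30% of all windows, and the AP-1 motif TGANTCA, present in 7.81%, were found in none of the 6 members' windows. A match is a run of letters and not evidence of binding, and a missing match says only that these letters are not in the window.

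Slfn1, a short member whose forced expression slows T cell growth in mice, stood at 29.8, 25.8, 31.7 and 26.3 TPM in the AOAH libraries, at 82.0, 84.9 and 83.1 TPM in the PC libraries, and at 66.0, 70.6, 65.3 and 72.3 TPM in the vehicle libraries. The 3 groups did not overlap at any point, with AOAH lowest and PC highest. Against vehicle, Slfn1 fell with AOAH to 28.4 ± 2.83 TPM, against 68.6 ± 3.42 TPM with vehicle (SD, n = 4 each). The log2 change was -1.25 with an SE of 0.07 (limma adjusted p = 1.76e-05), and the gene ranked 13 by p among the 11561 genes tested. All limma log2 changes given here are on the log2(TPM + 1) scale, which understates the change of genes at low TPM. With PC it rose to 83.3 ± 1.47 TPM, against 67.3 ± 2.85 TPM in vehicle 1 to 3 (n = 3 each), a log2 change of 0.30 ± 0.04 (limma adjusted p = 0.00352). The call and direction of Slfn1 held under every alternative in both comparisons.

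Slfn2, which in mice keeps resting T cells quiescent and lets them survive activation, was the most abundant member by far, above 96.0% of all genes that averaged 1 TPM or more. It stood at 269, 295, 278 and 288 TPM with AOAH, at 329, 339 and 331 TPM with PC, and at 292, 285, 290 and 288 TPM with vehicle. AOAH libraries lay on both sides of the vehicle libraries, and every PC library lay above all others. Against vehicle the log2 change with AOAH was -0.03 (95% interval -0.10 to 0.03, limma adjusted p = 0.468), so the interval leaves out a change as large as that with PC. With PC, Slfn2 rose to 333 ± 5.49 TPM, against 289 ± 3.15 TPM in vehicle 1 to 3, a log2 change of 0.20 ± 0.02 (limma adjusted p = 0.00223).

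Slfn3, the intermediate member, studied mostly in the differentiation of gut epithelium, went the other way. Its level was 16.8, 18.7, 18.6 and 17.8 TPM with AOAH, 11.4, 10.7 and 10.9 TPM with PC, and 16.0, 13.9, 16.1 and 11.9 TPM with vehicle. The groups did not overlap, AOAH was highest and PC lowest, and vehicle 4 lay closest to PC. With AOAH it rose to 17.9 ± 0.876 TPM, against 14.5 ± 1.97 TPM with vehicle, a log2 change of 0.30 ± 0.09 (limma adjusted p = 0.0394). That call was lost with batch as a replicate block (adjusted p = 0.0618), with no filter (0.0904), and without AOAH 2 (0.0915), AOAH 3 (0.0879), AOAH 4 (0.0769), vehicle 2 (0.0913) or vehicle 4 (0.0599). With PC, Slfn3 fell to 10.99 ± 0.387 TPM, against 15.3 ± 1.22 TPM in vehicle 1 to 3, a log2 change of -0.45 ± 0.07 (limma adjusted p = 0.0075), and this call held under every alternative.

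**Figure D1:**
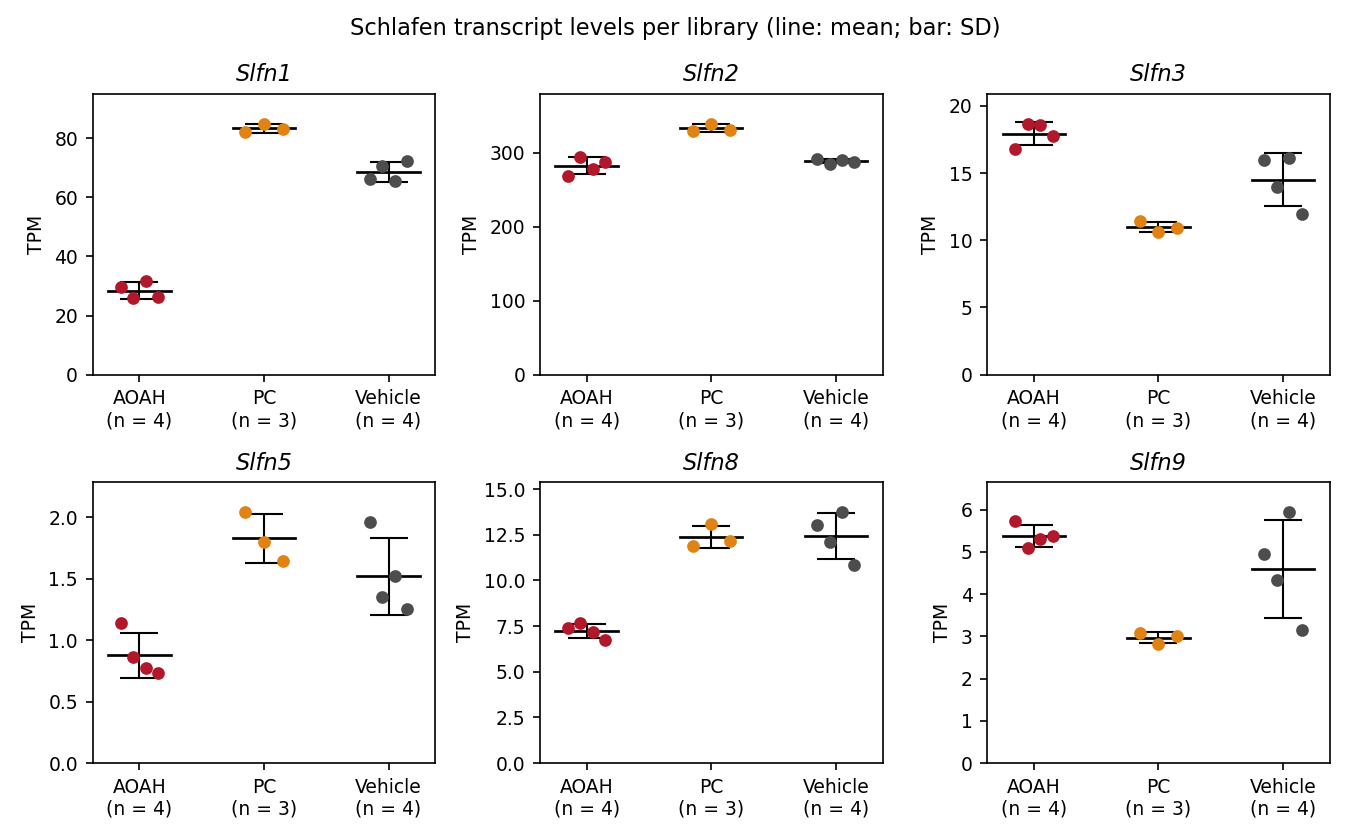
Levels of the 6 Schlafen genes in TPM on a linear axis from 0, with 1 point per library, a line at the group mean and a bar for the SD (AOAH n = 4, PC n = 3, vehicle n = 4). Slfn1, Slfn5 and Slfn8 are lowest with AOAH, Slfn3 and Slfn9 are lowest with PC, and Slfn2 is highest with PC.

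Among the long members, Slfn5, whose human counterpart restrains viral transcription, was the scarcest. It stood at 1.14, 0.86, 0.77 and 0.73 TPM with AOAH, at 2.04, 1.80 and 1.64 TPM with PC, and at 1.96, 1.35, 1.52 and 1.25 TPM with vehicle. Every AOAH library lay below every other library, while PC and vehicle overlapped. With AOAH, Slfn5 fell to 0.875 ± 0.185 TPM, against 1.52 ± 0.314 TPM with vehicle, a log2 change of -0.42 ± 0.13 (limma adjusted p = 0.0371). That call was lost with no filter (adjusted p = 0.0587), with quantile normalization (0.0750), and without AOAH 2 (0.0761), AOAH 3 (0.0833), AOAH 4 (0.0910), vehicle 1 (0.0902), vehicle 2 (0.0619) or vehicle 3 (0.0727). With a pseudocount of 0.1 its log2 change was -0.73 and with a pseudocount of 5 it was -0.15. Its mean with AOAH lay under the filter of 1 TPM, so it entered that test through its vehicle level. With PC the log2 change was 0.12 (95% interval -0.19 to 0.43, limma adjusted p = 0.578). The antisense gene Slfn5os overlaps Slfn5, and the sources used here do not give whether strand was used in counting, so reads from the pair cannot be told apart.

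Slfn8 and Slfn9 are near copies that lie next to each other, related to human SLFN11 and SLFN13. Slfn8 stood at 7.39, 7.66, 7.17 and 6.74 TPM with AOAH, at 11.9, 13.1 and 12.2 TPM with PC, and at 13.0, 12.1, 13.7 and 10.8 TPM with vehicle. All AOAH libraries lay below all others, and PC and vehicle overlapped. With AOAH, Slfn8 fell to 7.24 ± 0.389 TPM, against 12.4 ± 1.26 TPM with vehicle, a log2 change of -0.70 ± 0.08 (limma adjusted p = 3.20e-04), and this held under every alternative. With PC its log2 change was -0.06 (95% interval -0.22 to 0.10, limma adjusted p = 0.596), so a fall of the size seen with AOAH lies outside the interval.

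Slfn9 stood at 5.74, 5.09, 5.30 and 5.37 TPM with AOAH, at 3.09, 2.82 and 3.00 TPM with PC, and at 4.95, 4.34, 5.94 and 3.16 TPM with vehicle. PC was below all other libraries, and AOAH lay inside the wide vehicle range. With PC, Slfn9 fell to 2.97 ± 0.137 TPM, against 5.08 ± 0.807 TPM in vehicle 1 to 3, a log2 change of -0.61 ± 0.11 (limma adjusted p = 0.0127). With vehicle 4 included the log2 change was -0.47 and the call was lost (adjusted p = 0.0740). With AOAH its log2 change was 0.21 (95% interval -0.11 to 0.53, limma adjusted p = 0.310).

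The Slfn8 to Slfn9 ratio of TPM averaged 1.35 ± 0.111 with AOAH, 4.18 ± 0.408 with PC and 2.79 ± 0.468 with vehicle, and the libraries of the 3 groups did not overlap in it. Their coding sequences, both of 910 codons in GENCODE M21, were 92.7% identical over 2730 bases, the highest identity among the 15 pairs of members, and Slfn2 and Slfn3 came next at 75.2%. None of the 3862 stretches of 150 bases, the read length, in the Slfn8 transcript used was found unaltered in another Schlafen gene. For Slfn9, 87 of 5620 stretches (1.55%) were, and the pseudogene Slfn10-ps held 87 such stretches too. How reads that match several copies were shared out is not given in the sources used here. The values of Slfn9 and Slfn10-ps are therefore uncertain, by an amount that these stretches do not give. Only unaltered stretches of 1 transcript per gene were compared, of 6 for Slfn8 and 3 for Slfn9. The share of such reads is thus not known for either gene. Slfn10-ps and Slfn5 had like mean levels over the 11 libraries (1.32 and 1.37 TPM). For AOAH against vehicle, the authors' deposited table gave them base means, a size-factor-scaled signal, of 3.26 and 104.5. Summed over Slfn8 and Slfn9, the level was 12.1 to 13.1 TPM with AOAH, 15.0 to 15.9 TPM with PC and 14.0 to 19.7 TPM with vehicle.

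**Figure D2:**
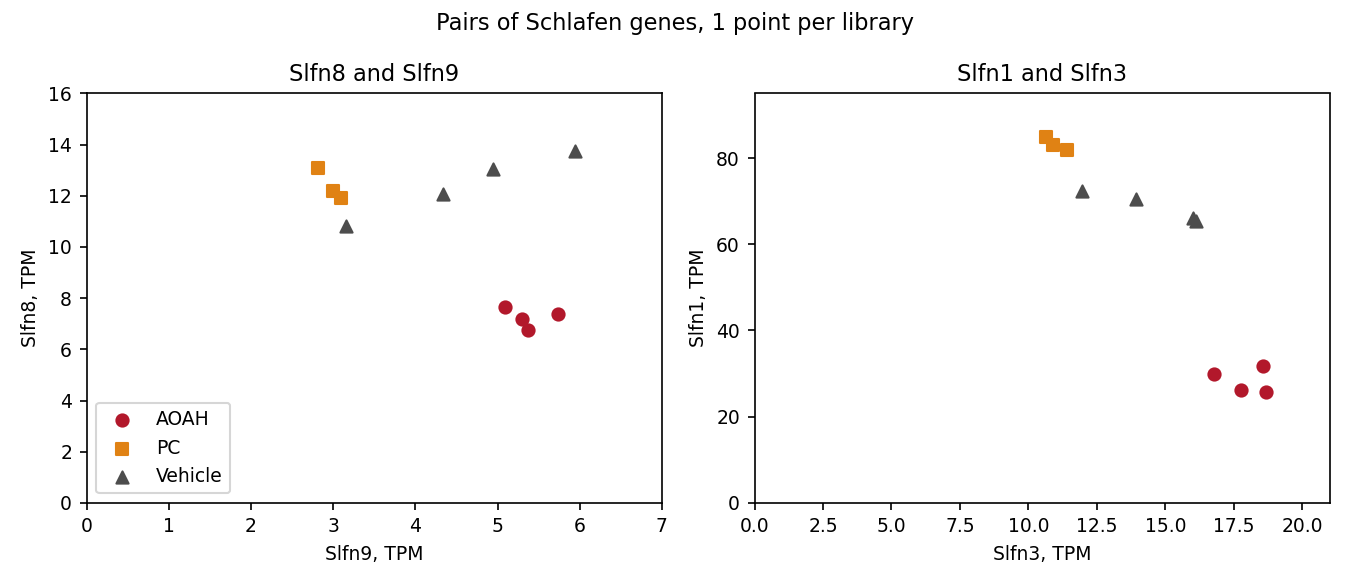
Slfn8 against Slfn9 (left) and Slfn1 against Slfn3 (right), both axes in TPM from 0, with 1 point per library. AOAH libraries lie low on Slfn8 at Slfn9 levels of 5.09 to 5.74 TPM, and PC libraries lie low on Slfn9 at Slfn8 levels of 11.9 to 13.1 TPM.

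Against vehicle, AOAH called 4 of the 6 members, 1 higher (Slfn3) and 3 lower (Slfn1, Slfn5 and Slfn8), where 25.2% of the 11561 genes tested were called, 13.1% higher and 12.1% lower. The same 4 were the members whose AOAH and vehicle libraries did not overlap, as was true of 28.8% of genes. PC also called 4 of the 6, 2 higher (Slfn1 and Slfn2) and 2 lower (Slfn3 and Slfn9), where 19.5% of 11630 genes were called, 8.26% higher and 11.2% lower. These 4 were again the members without overlap, against 39.2% of all genes. The median log2 change of the members was -0.23 with AOAH, against 0.01 over all genes, and 0.03 with PC, against -0.01 over all genes. Both comparisons use vehicle 1 to 3, so they are not independent of each other.

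Set directly against PC, AOAH differed in all 6 members, 2 higher and 4 lower, in a comparison that called 45.8% of 11596 genes, 24.3% higher and 21.5% lower. None of the 6 overlapped between the groups, which was also true of 50.7% of all genes. Slfn1 averaged 28.4 ± 2.83 TPM with AOAH (n = 4) and 83.3 ± 1.47 TPM with PC (n = 3), a log2 change of -1.53 ± 0.07 (limma adjusted p = 4.69e-06). Slfn8 (-0.70 ± 0.06), Slfn5 (-0.59 ± 0.12) and Slfn2 (-0.24 ± 0.03) were lower with AOAH by these log2 changes. Slfn9 (0.68 ± 0.07) and Slfn3 (0.66 ± 0.05) were higher with AOAH. Limma adjusted p-values of these 5 lay between 5.41e-05 for Slfn3 and 0.00485 for Slfn5, and no alternative that could be fitted ended any of the 6 calls. The Slfn5 mean with AOAH was 0.875 TPM, under the filter of 1 TPM. Slfn5 therefore entered this comparison, and the 6 counted here, through its PC level of 1.83 TPM. In the 3 batches with both treatments, each of the 6 differences had the same sign in all 3 same-batch pairs. The lack of overlap already fixed this outcome, so it is no further support.

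**Figure D3:**
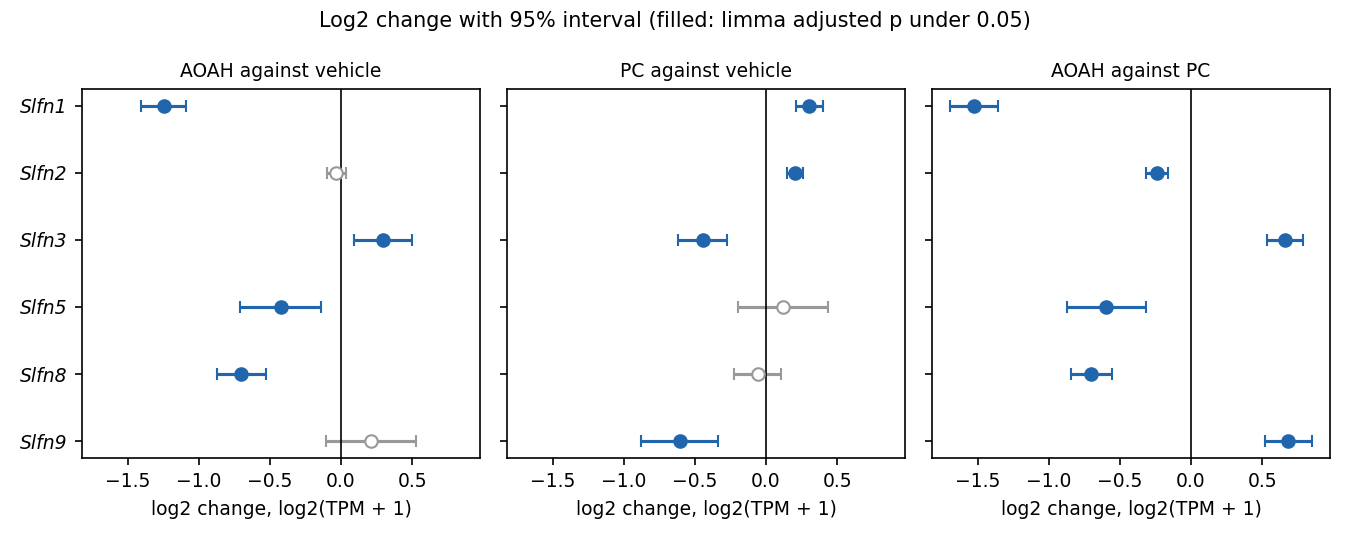
Log2 change on the log2(TPM + 1) scale with its 95% interval for each Schlafen gene, in AOAH against vehicle, PC against vehicle and AOAH against PC, with filled points where the limma adjusted p was under 0.05. Slfn1 has the largest change with AOAH (-1.25), and all 6 intervals lie off 0 in AOAH against PC.

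For the members called, the sign in the same-batch pairs against vehicle was fixed by the lack of overlap between the groups. The pairs therefore add only the spread of the sizes. With AOAH, Slfn1 was lower in 4 of 4 pairs (log2 differences -1.43 to -1.02), as were Slfn8 (-0.85 to -0.60) and Slfn5 (-0.51 to -0.34), and Slfn3 was higher in 4 of 4 (0.07 to 0.54). With PC, Slfn1 (0.26 to 0.34) and Slfn2 (0.17 to 0.25) were higher in 3 of 3 pairs, and Slfn3 (-0.52 to -0.36) and Slfn9 (-0.80 to -0.48) were lower in 3 of 3. Of the members not called, Slfn5 with PC was higher in 3 of 3 pairs (0.04 to 0.25). Slfn9 with AOAH was split, higher in 3 pairs and lower in 1. Slfn8 with PC was higher in 1 pair and lower in 2. Slfn2 with AOAH was higher in 1 of 4 pairs and lower in 2.

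The CD8 T cell markers moved with the groups too. With AOAH 3 of 5 were called lower, where 12.1% of all genes tested were. With PC 5 of 5 were called higher, where 8.26% of all genes tested were. The part of these markers in the changes of Slfn1 and Slfn2 was not tested. Myeloid cells are known for Schlafen expression as well, above all of Slfn4. Their 7 markers in the table summed to 4.55 to 6.09 TPM with AOAH, 7.29 to 8.02 TPM with PC and 5.33 to 9.18 TPM with vehicle, of which Cd68 gave 3.42 to 6.19 TPM. Slfn4 itself was at or below 0.04 TPM with AOAH and with PC, and at 0.08 to 0.12 TPM with vehicle, too low to be tested. Slfn14, a long member whose human counterpart cuts RNA, stayed at or below 0.04 TPM, and so did Slfnl1, a distant relative outside the cluster. Slfn10-ps had 1.22 to 1.81 TPM with AOAH, 1.22 to 1.49 TPM with PC and 1.07 to 1.33 TPM with vehicle, and was called in no comparison (limma adjusted p = 0.580 for AOAH against vehicle, 0.853 for PC against vehicle and 0.902 for AOAH against PC).

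The order of the levels changed between groups. With AOAH it was Slfn2, Slfn1, Slfn3, Slfn8, Slfn9 and Slfn5 from high to low, with no overlap between neighbours. With PC, Slfn8 (11.9 to 13.1 TPM) stood above Slfn3 (10.7 to 11.4 TPM). With vehicle, Slfn3 (11.9 to 16.1 TPM) and Slfn8 (10.8 to 13.7 TPM) overlapped, and no other neighbours in the order did. Slfn2 held 81.4% to 83.5% of the summed TPM of the 6 members with AOAH, 74.9% to 75.0% with PC and 73.6% to 74.3% with vehicle. The sum itself was 330 to 353 TPM with AOAH, 439 to 453 TPM with PC and 387 to 394 TPM with vehicle.

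The authors' deposited tables, made with DESeq2, carried all 6 members under their Ensembl IDs. For AOAH against vehicle the authors' deposited table gave log2 fold changes of -1.28 for Slfn1 (adjusted p = 3.52e-43), -0.78 for Slfn8 (5.69e-12) and -0.80 for Slfn5 (0.0103). Slfn3 was at 0.31 with an adjusted p of 0.0609 in the authors' deposited table, on the other side of the threshold from the limma result. Slfn9 (0.26) and Slfn2 (-0.04) did not pass in the authors' deposited table. For PC the authors' deposited table had Slfn1 at 0.32, Slfn2 at 0.22, Slfn3 at -0.47 and Slfn9 at -0.75, with adjusted p-values from 2.11e-04 for Slfn9 to 0.0268 for Slfn3, and Slfn5 (0.21) and Slfn8 (-0.05) did not pass.

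The profiles of the members over the 11 libraries differed from each other. Likeness was measured as the root mean square difference between log2(TPM + 1) profiles, each centred on its own mean over the 11 libraries, as a description without a test. Profiles were not scaled, so the measure reflects the size of the changes as well as their shape. Slfn1 and Slfn8 differed by 0.365 although they lay on the same side of their means in 11 of 11 libraries. Slfn2 and Slfn3 differed by 0.37 and did so in 2 of 11. The root mean square of the profile itself was 0.671 for Slfn1 and 0.105 for Slfn2. Slfn3 and Slfn9 were the closest pair (0.11), followed by Slfn5 and Slfn8 (0.16), and Slfn1 with Slfn9 (0.93) and Slfn1 with Slfn3 (0.93) were the farthest. Slfn8 and Slfn9, the near copies, differed by 0.58. The genes outside the family closest to Slfn1 included Gbp8 (0.08), an interferon-inducible guanylate-binding protein, and Tcp11l2 (0.09). Closest to Slfn2 were Ppib, a chaperone of the endoplasmic reticulum (0.03), Kctd10 (0.03) and Etv3 (0.03). Among the closest to Slfn3 were the kinase gene Mast2 (0.06) and Dtl, which acts in DNA replication control (0.06). The nearest to Slfn5 were Tmem87b (0.09), Rbms1 (0.10) and Clec2d (0.10), and those to Slfn9 were Haus4, a spindle protein (0.10), Garin3 (0.11) and Mbnl3 (0.11). Hcst (0.10) and Utrn (0.10) were among the nearest to Slfn8. Libraries of 1 group share their treatment, so the 11 libraries are not independent points.

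Genes next to the cluster were described for their position. In the RefSeq order the cluster runs Slfn5, Slfn9, Slfn8, Slfn2, Slfn1, Slfn4, Slfn3, Slfn14, and of the 8 protein-coding genes on each side, 8 of 16 were tested. None of the 8 was called with AOAH, where 25.2% of all genes were. With PC 1 of the 8 (12.5%) was, against 19.5% of all genes: Zfp830, a zinc finger gene, rose (log2 change 0.24, limma adjusted p = 0.0397). Counts this small were not tested against all genes. The lowest p-values with AOAH belonged to Nle1, a ribosome assembly gene (0.11, limma adjusted p = 0.0751), Taf15 (0.09, adjusted p = 0.0820) and the DNA repair gene Rad51d (0.09, adjusted p = 0.228). With PC, Nle1 (0.11) and Taf15 (-0.10) did not pass either. In AOAH against PC, Taf15 was higher (0.20) and Zfp830 lower (-0.19).

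**Figure D4:**
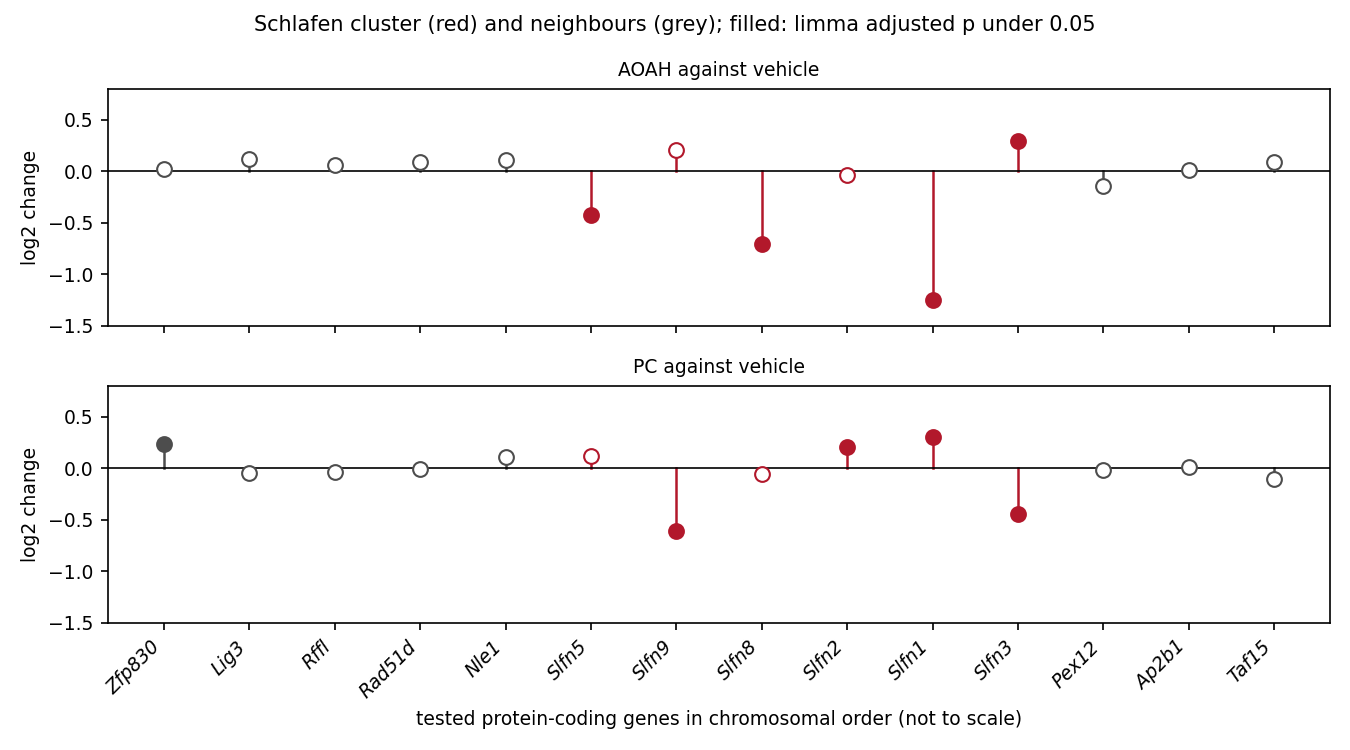
Log2 changes on the log2(TPM + 1) scale along the Schlafen cluster (red) and its tested neighbours (grey) in chromosomal order, not to scale, for AOAH against vehicle (top) and PC against vehicle (bottom), filled where the limma adjusted p was under 0.05. With AOAH the filled points are all Schlafen genes, and with PC Zfp830 is the filled neighbour.

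Genes of interferon signalling, which induces Schlafen genes, were described by the share called, beside the 25.2% of all genes called with AOAH and the 19.5% called with PC. Of 14 receptor and signalling genes, 8 fell and 1 rose with AOAH (64.3% called, median log2 change -0.40, against 0.01 over all genes), and 5 rose and 1 fell with PC (42.9% called, median 0.11, against -0.01 over all genes). Irf9, the DNA-binding part of the factor that acts at interferon response elements, fell with AOAH (-0.59) and rose with PC (0.40). The receptor kinase gene Jak1 fell with AOAH (-0.35) and rose with PC (0.22), and Irf1 fell with AOAH (-0.48). Of 35 interferon-stimulated genes tested, 26 fell and none rose with AOAH (74.3% called, median -0.42, against 0.01 over all genes). With PC 4 of 36 rose and 4 fell (median -0.01, equal to that of all genes), and the 22.2% called lay near the share of all genes. Ifit3 fell with AOAH (-1.40) and rose with PC (0.42), as did its relative Ifit3b (-0.89 and 0.62) and Samhd1, which depletes nucleotides (-0.88 and 0.21). Ifit3b averaged 0.55 TPM with AOAH, under the filter of 1 TPM, so it entered that test through its vehicle level of 1.87 TPM. Ifi203 fell with AOAH (-0.86), and Ly6c2 fell with PC (-0.24).

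Quiescence genes, the programme in which Slfn2 is placed in mice, were lower with AOAH and higher with PC where called. Of 27 tested, 18 fell and none rose with AOAH (66.7% called, median log2 change -0.34, against 0.01 over all genes), and 18 rose and none fell with PC (66.7% called, median 0.36, against -0.01 over all genes). Klf2, a factor of resting T cells, rose with PC to 94.2 ± 4.02 TPM, against 41.1 ± 4.29 TPM in vehicle 1 to 3 (log2 change 1.18, limma adjusted p = 6.84e-04), and fell by 1.79 on the log2 scale with AOAH. S1pr1, the egress receptor (-1.92 and 0.88), Pik3ip1, a brake on PI3 kinase (-1.47 and 0.61), and Txnip, a brake on glucose uptake (-1.05 and 0.41), fell with AOAH and rose with PC. Slfn2 rose with PC and its AOAH change did not pass, whereas Slfn1 fell with AOAH and rose with PC.

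Of 20 tested genes of transfer RNA cleavage, protection and repair, 4 rose and 2 fell with AOAH (30.0% called, against 25.2% of all genes; median log2 change 0.08, against 0.01 over all genes), and none rose and 7 fell with PC (35.0% called, against 19.5% of all genes; median -0.11, against -0.01 over all genes). Ddx1 (0.18 and -0.11) and Fam98b (0.15 and -0.21), parts of the transfer RNA ligase complex, rose with AOAH and fell with PC. Nsun2, a transfer RNA methyltransferase, did the same (0.15 and -0.13). So did Dnmt1 (0.17 and -0.51), which is a DNA methyltransferase rather than a transfer RNA enzyme. It stands on the list and is counted in both shares. Trnt1, which adds the CCA end, fell with PC (-0.25) and had 0.13 with AOAH (limma adjusted p = 0.0875). Angiogenin, from which Slfn2 guards transfer RNA, and its inhibitor were looked at after the values were seen: Ang, between 0.0 and 0.15 TPM, was below the filter, and Rnh1 had log2 changes of -0.11 with AOAH (limma adjusted p = 0.111) and -0.02 with PC (adjusted p = 0.770).

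The switch of the integrated stress response, which senses such damage through kinases of the initiation factor eIF2, had 1 of 12 genes higher and 2 lower with AOAH (median log2 change -0.03, against 0.01 over all genes), a share called of 25%, near the 25.2% of all genes. With PC 6 rose and 1 fell (58.3% called, against 19.5% of all genes; median 0.21, against -0.01 over all genes). Ddit3 (-0.44 and 0.67) and Trib3 (-0.36 and 1.00), both targets of the factor ATF4, fell with AOAH and rose with PC. Atf4 rose with both (0.10 and 0.15), and Ppp1r15a, which reverses the response, rose with PC (0.46). Eif2ak2 and Oas1a each stand on 2 of these lists.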

How the data were processed

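The authors deposited log2 values of TPM plus 1 for 25562 gene symbols in 11 libraries, and the submitters' processing notes name RSEM, DESeq2 and the build mm39. Per the labels, primers carried molecular identifiers and reads were paired, 150 bases long. How the identifiers and strand were used, the aligner, the annotation and the versions were not given in the sources used here. Back-transformed TPM summed to between 998406 and 998655 per library. The authors' deposited DESeq2 tables give a base mean (a size-factor-scaled signal), a log2 fold change with its error, a Wald score that was not used, and p-values.

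Tests were made across all genes with limma 3.58.1 in R 4.3.3 on log2(TPM + 1), with a mean-variance trend and robust variances, two-sided, keeping genes that averaged 1 TPM or more in the comparison. A gene was called at a Benjamini-Hochberg adjusted p under 0.05. AOAH was compared with vehicle 1 to 4, PC with vehicle 1 to 3, because the label of vehicle 4 does not list that comparison, and AOAH with PC. The procedure was tested on simulated data. Alternatives were pseudocounts of 0.1 and 5, no filter, a filter of 5 TPM, batch as a replicate block, 1 fit over all libraries, TMM rescaling, quantile normalization, vehicle 4 included for PC and each library left out.

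The pairing by batch comes from the labels. Across 11596 genes, deviations from group means correlated by -0.0033 on average in 10 same-batch pairs (-0.0794 to 0.118) and by 0.0011 in 30 other pairs.

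The members and lists were chosen with earlier results of these data known. Named genes were the Schlafen genes, the 3 genes of lowest p per list in each comparison with vehicle, and the 3 profiles closest to each member among genes with at least 5 TPM; Ang and Rnh1 were added later, and some genes that this rule names are not reported here. Coding sequences came from GENCODE M21 and were aligned with Biopython 1.88. The repertoire table was not used.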

Additional observations from a re-analysis of the deposited data

How the results depend on the processing

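Over the 18 member results, 270 refits under the alternatives gave 254 with the same direction and side of the threshold, 16 that lost a call and none that gained one or changed sign; the lost calls belonged to Slfn3 and Slfn5 with AOAH and to Slfn9 with PC. The members called with AOAH numbered 2 with no filter, in place of 4. They numbered 2 to 4 when 1 library was left out (2 without AOAH 2, AOAH 3, AOAH 4 or vehicle 2). Those called with PC numbered 3 with vehicle 4 included, in place of 4. When 1 library was left out, those with PC stayed at 4 and those in AOAH against PC at 6. Over all genes, PC called 1339 with no filter and 1274 to 2083 with 1 library left out, in place of 2269 (1274 without vehicle 1, 1387 without PC 3, 1391 without vehicle 3 and 1405 without PC 2); these fits have more genes or fewer samples. With batch as a replicate block the calls numbered 2300 for AOAH, 1572 for PC and 4246 for AOAH against PC, and among the members this block changed only the call of Slfn3 with AOAH. The small change of Slfn10-ps, never called, took either sign with 1 library left out: -0.004362 to 0.07919 for PC against vehicle and -0.05879 to 0.06492 for AOAH against PC. A filter of 5 TPM left 4 members, without Slfn5 and Slfn9. The pseudocount set the size of low genes: Slfn9 with PC had a log2 change of -0.74 at 0.1 and -0.34 at 5, called in both. After quantile normalization the median log2 change of all genes with AOAH was 0.0241.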

Other observations

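Slfn3 (11.9 TPM), Slfn5 (1.25 TPM), Slfn8 (10.8 TPM) and Slfn9 (3.16 TPM) were each lowest among the vehicle libraries in vehicle 4, whereas Slfn1 was highest there (72.3 TPM). The coefficient of variation between AOAH libraries was 9.96% for Slfn1, 4.01% for Slfn2, 4.88% for Slfn3, 21.1% for Slfn5, 5.37% for Slfn8 and 5.04% for Slfn9. Between PC libraries it was 1.77% for Slfn1, 1.65% for Slfn2, 3.53% for Slfn3, 11.02% for Slfn5, 4.99% for Slfn8 and 4.63% for Slfn9. Between the 4 vehicle libraries it was 4.99% for Slfn1, 0.912% for Slfn2, 13.6% for Slfn3, 20.6% for Slfn5, 10.1% for Slfn8 and 25.3% for Slfn9, so the coefficient for AOAH was lower than for vehicle in Slfn3, Slfn8 and Slfn9 and higher in Slfn1, Slfn2 and Slfn5. No library of the 12 groups of 4 values lay far enough from the others to be singled out by Dixon's test. The Slfn2 to Slfn1 ratio of TPM was 8.80 to 11.4 with AOAH, 3.99 to 4.01 with PC and 3.98 to 4.44 with vehicle. These values were noticed after the data were examined and no test was made on them.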
